A study of Fragaria vesca with 9 samples.

Results

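Wild type fruit of Fragaria vesca, the woodland strawberry, was described by its gene expression at 26 days after anthesis, the opening of the flower. Its members were the 3 wild type libraries out of 9 in the series, taken from the WT label. The other 6 libraries came from 2 mutant lines of FvMATE51 and entered no value given here. Each library was made from polyadenylated RNA of fruit, and the labels name no treatment, transgene or growth condition for the wild type. They leave out whether each replicate came from its own plant, how many fruits went into a library, and whether achenes and calyx were removed, so the spread between libraries may be technical. With 1 group there was no comparison between groups and no p-value. Levels are FPKM, fragments scaled by listed gene length and by the depth of the library, and 2 genes were called different in level only where their values in the 3 libraries did not overlap.

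The fleshy part of a strawberry is the swollen receptacle of the flower, and the true fruits are the dry achenes on its surface, each holding a seed. Ripening in strawberry is governed by abscisic acid and auxin more than by ethylene. During it, pectin and other polysaccharides of the cell wall are broken down, anthocyanins accumulate in the vacuole, and furanones, esters and terpenes give the aroma. Sugars and organic acids, mostly citrate and malate, are stored in the vacuole behind proton pumps and carriers.

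The table listed 34777 genes, and 15167 of them (43.6%) averaged at least 1 FPKM over the 3 libraries and are called expressed below. Each count of expressed genes in a list is to be read against that share. Listed genes held 42858627, 39187325 and 51649115 fragments in replicates 1, 2 and 3. At these depths 1 FPKM in a gene of 1000 bases stood for 45, 40 and 53 fragments. Another 11059 genes (31.8%) were at 0 in every library. For a gene of 1000 bases a count of 0 allows up to 0.0674, 0.0748 and 0.0570 FPKM in the 3 libraries (3 fragments each). Such limits cover counting error only.

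The tissue label was checked against marker lists. The achene list, of seed storage and oil body proteins, had 20 of 32 genes expressed (62.5%, against 43.6% of all listed genes). Its sum was 1398, 873 and 703 FPKM in replicates 1, 2 and 3. Seed transcripts were thus present in all 3 libraries and were highest in replicate 1. Epidermis and cuticle genes summed to 416, 422 and 418 FPKM, with 12 of 26 expressed (46.2%, close to the 43.6% of all listed genes). Green tissue genes (photosystem proteins, chlorophyll-binding proteins, Rubisco small subunit) had 12 of 48 expressed (25%, below that share) and summed to 52.2, 48.7 and 53.3 FPKM. Of the pollen and anther list 0 of 17 genes were expressed, with 12 at 0 in every library. Floral homeotic genes, which set organ identity in the flower, had 5 of 8 expressed (62.5%) and summed to 259, 245 and 264 FPKM. The vascular and lignified tissue list had 12 of 72 expressed (16.7%) and summed to 266, 277 and 273 FPKM. All 6 Casparian strip membrane protein genes, markers of the root endodermis, were at 0. In bulk fruit, fewer cells of a type and less RNA per cell cannot be told apart.

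Expression was concentrated in few genes. The 10 highest genes held 11.7%, 11.3% and 12.8% of the summed FPKM in replicates 1, 2 and 3. The 100 highest held 28.9%, 28.8% and 30.4%, and the 1000 highest 60.4%, 60.7% and 63.4%. No more than 535, 527 and 449 genes, counted from the top of each library, made up 50% of its sum. At the other end, the median listed gene had a mean of 0.381 FPKM and the median expressed gene 9.44 FPKM. Of the 30 highest genes of each library, 24 were in that group in every library.

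The highest gene was FvH4_5g18321, described as 14 kDa proline-rich protein DC2.15, a hydrophobic protein with a lipid-transfer fold (chromosome 5, 10540996 to 10541496, minus strand). It stood at 22643, 20709 and 29101 FPKM and held 4.07%, 3.68% and 4.73% of each library's sum. Its lowest value was over the highest value of every other gene. Next came metallothionein-like protein 1 FvH4_3g20030, a small cysteine-rich metal-binding protein, at 6557, 6710.2 and 8240.4 FPKM. The aroma enzyme 2-methylene-furan-3-one reductase FvH4_6g50700 followed at 6260.0, 6483 and 7803 FPKM, and its values overlapped those of the metallothionein. The metallothionein gene is listed with 192 bases, and its rank depends on that length. It held 56039, 51700 and 83199 fragments, against 394563, 368383 and 581023 for the reductase.

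Proteins of fruit metabolism filled most of the next places. MLP-like protein 329 FvH4_4g32700, of the Bet v 1 family of small ligand-binding proteins, had 4989.6, 4952 and 5480.1 FPKM. Acyl carrier protein 1 FvH4_6g04190, which carries growing fatty acids in the plastid, had 4414, 4359 and 5842 FPKM, and polygalacturonase FvH4_6g41380, a pectin-cutting enzyme, 4775, 4638 and 4696 FPKM. A 2-oxoglutarate/Fe(II)-dependent dioxygenase, FvH4_1g02120, of an oxidative enzyme class that also makes flavonoids and hormones, had 3831, 3766 and 3891 FPKM. Thioredoxin H-type FvH4_2g39210, a redox protein, stood at 2929, 3108 and 3722 FPKM, and cytosolic glyceraldehyde-3-phosphate dehydrogenase GAPC2 FvH4_4g24420, of glycolysis, at 2519, 2599 and 3268 FPKM. The carrier protein overlapped both MLP-like protein 329 and polygalacturonase, which did not overlap each other. The dioxygenase lay below all 3, and the thioredoxin below the dioxygenase, in every library.

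**Figure D1:**
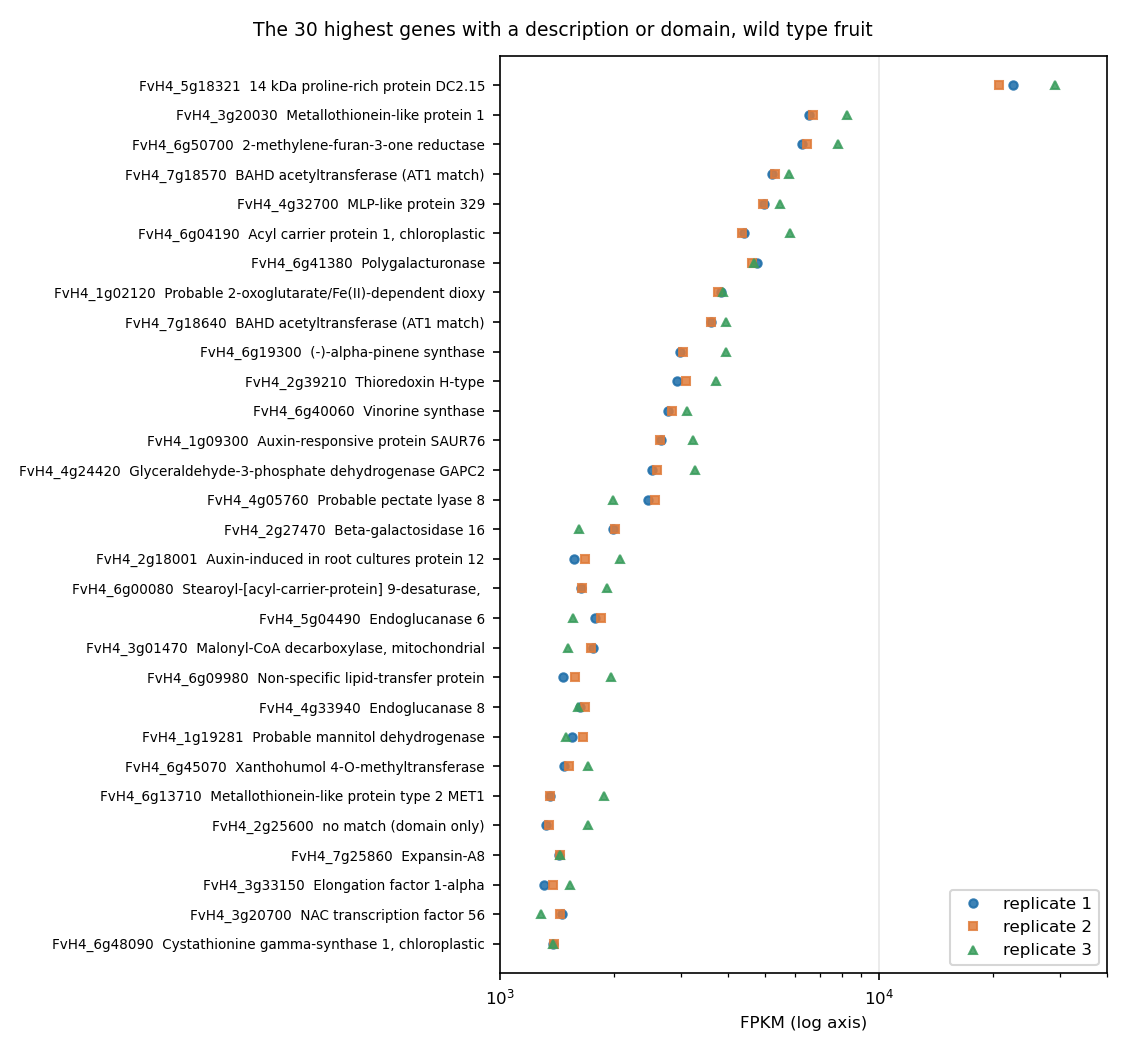
FPKM (log axis) of the 30 highest genes with a description or domain, 1 point per wild type library, ordered by mean. The 14 kDa proline-rich protein stands alone at 20709 to 29101 FPKM, and the other 29 lie between 1288 and 8240 FPKM.

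Other enzymes among the 30 highest belong to lipid, redox and amino acid metabolism. Malonyl-CoA decarboxylase FvH4_3g01470, which turns malonyl-CoA into acetyl-CoA, had 1762, 1739 and 1519 FPKM. Auxin-induced in root cultures protein 12 FvH4_2g18001, a b-type cytochrome of the plasma membrane, had 1570.4, 1675 and 2072 FPKM. A probable mannitol dehydrogenase FvH4_1g19281 stood at 1555, 1655 and 1500.4 FPKM, and 8 more genes of the same description lay in a run with it on chromosome 1, 4 of the 9 being expressed. Cystathionine gamma-synthase 1 FvH4_6g48090, the committed step of methionine synthesis, had 1386, 1388 and 1385 FPKM. FvH4_2g25600, known by its universal stress protein domain alone, had 1326, 1348 and 1714 FPKM.

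The flavonoid pathway, which makes the red anthocyanins, was expressed at every main step, mostly through 1 leading gene. Phenylalanine ammonia-lyase, the entry enzyme, had 290.3, 311 and 292 FPKM for FvH4_6g16060 and 43.0, 44.5 and 40.2 FPKM for FvH4_7g19130. Trans-cinnamate 4-monooxygenase, the next step, was listed as 1 gene, FvH4_3g40570, at 64.4, 71.4 and 77.1 FPKM. The highest 4-coumarate-CoA ligase, FvH4_4g09340, which activates the acid to its CoA ester, had 29.8, 30.8 and 20.4 FPKM and overlapped no other member. Both lay below the leading lyase gene in every library, and the ligase also below the second lyase gene.

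Enzymes that build the flavonoid skeleton came next. The single expressed gene of the chalcone and stilbene synthase list, FvH4_7g01160 (chromosome 7, 1567816 to 1575466, minus strand), described as polyketide synthase 1, had 831, 891 and 1059 FPKM. The other 4 genes of its list were under 1 FPKM, 3 of them at 0 in every library. Chalcone isomerase-like protein 2 FvH4_7g25890, of a type known as a helper of chalcone synthase, had 1150.4, 1171 and 1444 FPKM. It was above chalcone-flavanone isomerase 1 FvH4_7g20870, which closes the ring, at 297, 300.4 and 366 FPKM, values that overlapped those of the leading lyase gene. Flavanone 3-dioxygenase FvH4_1g11810 had 866, 912 and 1096 FPKM and held 98.6% ± 0.188 of its list (SD, n = 3 libraries).

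The late, anthocyanin-making steps followed the same form. Dihydroflavonol 4-reductase FvH4_2g39520 had 413, 426 and 450.1 FPKM, 99.4% ± 0.0758 of the 4 genes of that name. Leucoanthocyanidin dioxygenase FvH4_5g01170, also called anthocyanidin synthase, had 1277, 1329 and 1517 FPKM. Anthocyanidin 3-O-glucosyltransferases, which add the sugar that stabilises the pigment, were led by FvH4_7g33840, at 500.4, 548 and 561 FPKM. It held 79.9% ± 0.296 of 11 genes, and the second, FvH4_1g13970, had a mean of 128 FPKM. Leucoanthocyanidin dioxygenase was the highest gene of the pathway lists in every library, although its range overlapped that of chalcone isomerase-like protein 2. Flavonoid 3'-monooxygenase FvH4_5g14010, which adds the hydroxyl group that separates cyanidin from pelargonidin pigments, was far lower, at 32.1, 32.9 and 34.9 FPKM.

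Side branches of the pathway differed in level. The highest flavonol synthase, FvH4_2g07082, had 2.58, 2.60 and 3.26 FPKM, and leucoanthocyanidin reductase FvH4_4g28110, which makes catechin, 0.130, 0.144 and 0.0366 FPKM. Anthocyanidin reductase FvH4_5g04220, which makes epicatechin, was at 46.1, 41.5 and 36.6 FPKM. Each of these lay below dihydroflavonol 4-reductase in every library. Anthocyanidin reductase was nevertheless above flavonoid 3'-monooxygenase and the leading 4-coumarate-CoA ligase in every library.

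**Figure D2:**
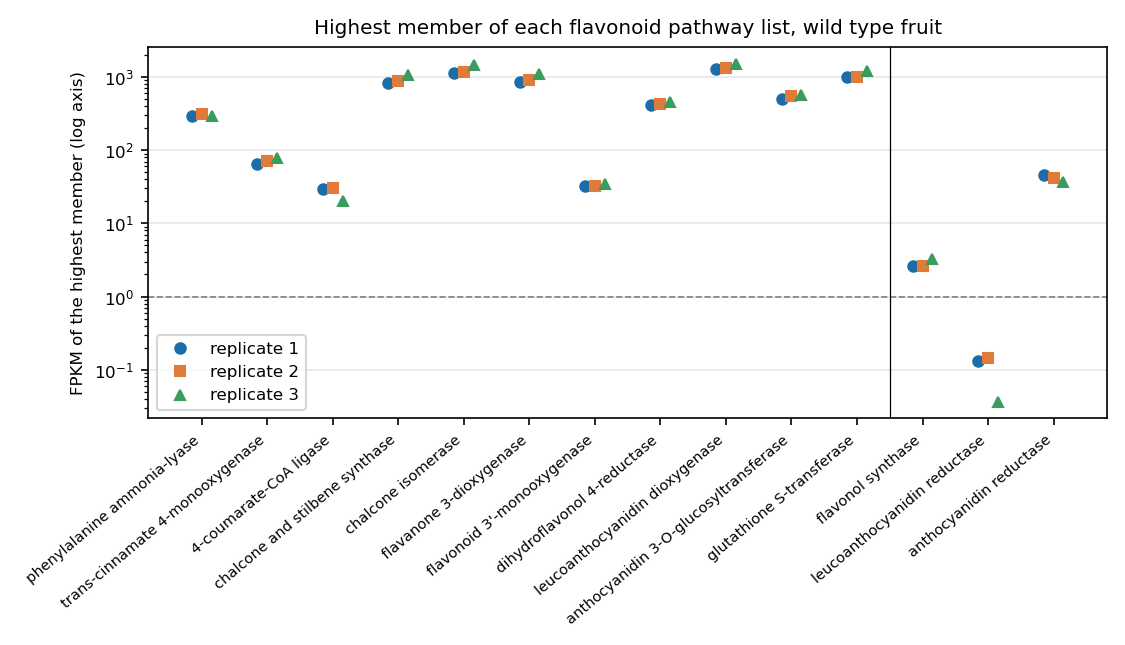
FPKM (log axis) of the highest member of 14 flavonoid pathway lists in the 3 wild type libraries; the dashed line marks 1 FPKM, and the lists right of the solid line are side branches. Leucoanthocyanidin dioxygenase is highest at 1277 to 1517 FPKM, and leucoanthocyanidin reductase lies at 0.0366 to 0.144 FPKM.

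Transport and control of the pigments were present as well. Glutathione S-transferase F11 FvH4_1g27460, of the class that escorts anthocyanins to the vacuole in other plants, had 989, 1003 and 1206 FPKM and held 60.1% ± 0.0356 of its list of 67. Among the regulators, MYB113 FvH4_1g22020, a type that switches on anthocyanin genes in Arabidopsis, had 43.7, 41.2 and 48.4 FPKM. It was below MYB1 FvH4_5g32460, the highest MYB of the fruit, at 188, 177 and 199 FPKM. Its usual partners, the WD-repeat protein TRANSPARENT TESTA GLABRA 1 FvH4_7g32970 and the helix-loop-helix factor BHLH42 FvH4_2g23700, had 29.2, 30.4 and 40.8 FPKM for the first and 31.8, 36.6 and 28.2 FPKM for the second. Carotenoid genes were modest, with phytoene synthase FvH4_6g38780, the first carotenoid step, at 24.0, 23.7 and 21.3 FPKM. In all, 69 of 149 pigment genes were expressed (46.3%, close to the 43.6% of all listed genes), and they held 1.49% ± 0.0563 of the summed FPKM. The group counts all 67 glutathione S-transferases, with 35 expressed and 0.306% of the summed FPKM in the mean. Their part in pigment was not tested.

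Aroma genes, as grouped here, took the largest share of the fruit's expression among the 5 metabolic areas examined (pigment, aroma, wall, acid, sugar). They held 6.14%, 6.18% and 6.47% of the summed FPKM, from 64 expressed genes of 257 (24.9%, below the 43.6% of all listed genes), and 8 of them were among the 30 highest genes. The group counts all BAHD acyltransferases (2.32% of the summed FPKM in the mean) and acyl carrier proteins (0.913%). Their part in aroma was not tested, so the order of the areas depends on how lists were assigned. With the 30 highest genes left out, the aroma share was 1.24%, below the 1.64% of wall and the 1.84% of pigment genes. Furaneol, the caramel-like furanone of strawberry, is made by 2-methylene-furan-3-one reductase FvH4_6g50700 (chromosome 6, 37684958 to 37687209, plus strand). That gene, whose values are given above, made up 99.9% ± 0.0127 of the 3 genes so described. Its neighbour FvH4_6g50701, listed 217 bases away, had 5.50, 6.24 and 5.57 FPKM. An O-methyltransferase, FvH4_6g45070, had 1481, 1521 and 1708 FPKM and held 91.9% ± 0.484 of its list of 19. Its Swiss-Prot match is a xanthohumol methyltransferase of hop, and enzymes of this family methylate furaneol in strawberry.

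Acyltransferases of the BAHD family join an acyl-CoA to an alcohol, and alcohol acyltransferases of this family make fruit esters. Of 105 listed, 20 were expressed (19.0%), and the sum was 12948, 13144 and 14154 FPKM. The first 4 genes held 98.1% of it. They were FvH4_7g18570 (chromosome 7, 15467224 to 15471989, plus strand), at 5238, 5341 and 5788 FPKM, and FvH4_7g18640 (chromosome 7, 15502718 to 15504533, plus strand), at 3606, 3606 and 3966 FPKM. Then came FvH4_6g40060, with 2789, 2856 and 3129.6 FPKM, and FvH4_5g06190, with 1065, 1085 and 1001 FPKM. No value of any of the 4 overlapped those of another. Their descriptions name alkaloid acetyltransferases of other plants (an N-methylcanadine acetyltransferase for the first pair, vinorine synthase, stemmadenine O-acetyltransferase), which are the nearest Swiss-Prot matches and not a measured activity.

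Both of the highest BAHD genes lie on chromosome 7, 30729 bases apart, with FvH4_7g18630 between them at 65.1, 67.6 and 72.8 FPKM. That gene, of the same description, was lower than each of its neighbours in every library. By fragments instead of FPKM, FvH4_7g18570 was the highest gene of the whole fruit, with 1.80% of all fragments, since its listed length is 3209 bases.

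Terpene synthases make the volatile terpenes. In a list of 64, 7 were expressed (10.9%, against 43.6% of all listed genes) and 35 were at 0 in every library. An alpha-pinene synthase, FvH4_6g19300 (chromosome 6, 12813283 to 12814074, plus strand), had 2990.2, 3043 and 3955 FPKM. A germacrene D synthase, FvH4_5g06470 (chromosome 5, 3803069 to 3805453, plus strand), had 1175, 1226 and 1011 FPKM. These 2 held 99.6% of the list, and the next member, ent-kaurene synthase FvH4_3g14116 of gibberellin synthesis, had 6.68, 5.93 and 3.97 FPKM. The pinene synthase model is listed with 708 bases, against 1713 for the other, and its part of the list was 54.1% by fragments and 73.9% by FPKM. All 7 genes described as nerolidol synthase, enzymes known in strawberry to make nerolidol and linalool, were under 1 FPKM and summed to 0.785 FPKM.

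Fatty acids supply the acyl chains and the green-note aldehydes. Stearoyl-ACP desaturase FvH4_6g00080, which makes oleate in the plastid, had 1635, 1647 and 1922 FPKM and 97.4% ± 0.0484 of its list. The microsomal-type desaturases that make linoleate were led by FvH4_3g44270, at 362, 381 and 293 FPKM, and FAD2 FvH4_6g22400, at 224, 231 and 245 FPKM. Linoleate 13S-lipoxygenase FvH4_7g00440, which oxidises such chains, had 202, 205 and 157 FPKM. Linolenate hydroperoxide lyase FvH4_6g42740, which cuts the product into aldehydes, was much lower, at 22.6, 22.2 and 23.7 FPKM.

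Alcohol precursors and other volatiles completed the group. Pyruvate decarboxylase 2 FvH4_6g11100, which makes acetaldehyde, had 552, 585 and 615 FPKM, and alcohol dehydrogenase FvH4_2g14750, which reduces it to ethanol, 204, 214 and 249.6 FPKM. A carboxyl methyltransferase FvH4_2g39441, of a family that makes methyl esters such as methyl jasmonate and methyl salicylate, had 761, 806 and 841 FPKM and 97.4% ± 0.201 of a list of 17. Its neighbour FvH4_2g39450, 354 bases away, had 17.4, 21.1 and 22.2 FPKM. Of 2 isoeugenol synthase genes, of a route to spicy phenylpropenes, 1 was at 0 in every library and FvH4_3g28660 had 0, 0.0695 and 0 FPKM.

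Cell wall enzymes held 3.88%, 3.90% and 3.36% of the summed FPKM, from 90 of 348 genes (25.9%). Of these, 6 were among the 30 highest genes. Pectin enzymes came first. Polygalacturonase FvH4_6g41380 (chromosome 6, 32537433 to 32539550, plus strand), whose values are given above, held 94.3% ± 0.189 of a list of 69, of which 35 were at 0. It was 25.7-fold above the second member, FvH4_1g03310, at 194, 179.8 and 175 FPKM. Its 2 neighbours of the same list had 0.155, 0.172 and 0.0656 FPKM (FvH4_6g41360) and 0, 0 and 0.0595 FPKM (FvH4_6g41430).

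Pectate lyase was shared among 3 genes. Pectate lyase 8 FvH4_4g05760 (chromosome 4, 5130961 to 5136618, minus strand), which cleaves unesterified pectin, had 2459.8, 2567 and 1988 FPKM, pectate lyase 20 FvH4_2g19540 687, 699 and 665 FPKM and pectate lyase 18 FvH4_5g06720 288, 304 and 324 FPKM. Together they made up 99.6% of 14 genes, and none overlapped another. Pectinesterase FvH4_6g35830, which removes methyl groups from pectin, had 1194, 1289 and 1228 FPKM, and its neighbour FvH4_6g35820, 7347 bases away, 528, 558 and 528 FPKM. Pectinesterase inhibitor 10 FvH4_5g00420, of a family that blocks that enzyme, reached 1159, 1221 and 1284 FPKM, in the same range as the esterase.

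Enzymes of the other wall polysaccharides had the same order of level. Endoglucanase 6 FvH4_5g04490, at 1782, 1855 and 1562 FPKM, and endoglucanase 8 FvH4_4g33940, at 1632, 1674 and 1611 FPKM, which cut glucan chains, held 94.1% of 24 genes, and their values overlapped. Beta-galactosidase 16 FvH4_2g27470, which trims galactose side chains, had 1992, 2017 and 1616 FPKM, 87.8% ± 0.193 of a list of 25. Expansins loosen the wall without cutting it, and their list of 37 was led by FvH4_7g25860 (A8), at 1435, 1444 and 1441 FPKM, and FvH4_3g36410 (A6), at 1056, 1095 and 1311 FPKM. The A8 gene was higher in every library, and its values spanned less than those of any other gene of the wall lists among the 30 highest. Xyloglucan endotransglucosylase FvH4_4g33070, which cuts and rejoins xyloglucan, was lower, at 326, 334 and 316 FPKM.

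Other wall lists were lower. Alpha-L-arabinofuranosidase FvH4_1g29140, which trims arabinose side chains, had 37.4, 35.1 and 34.4 FPKM. The highest cellulose synthase subunit, FvH4_7g01100, had 107, 109 and 73.8 FPKM, and its values overlapped those of FvH4_2g29420, at 73.5, 79.5 and 57.2 FPKM. Laccases, which polymerise lignin, had 4 of 51 genes expressed and a sum of 67.5, 76.7 and 63.7 FPKM. All 6 expressed cellulose synthase genes were lowest in replicate 3, as were 6188 of the 15167 expressed genes. The median length in their list is 4625 bases, and long genes in general read low in that library, as given with gene length further on.

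**Figure D3:**
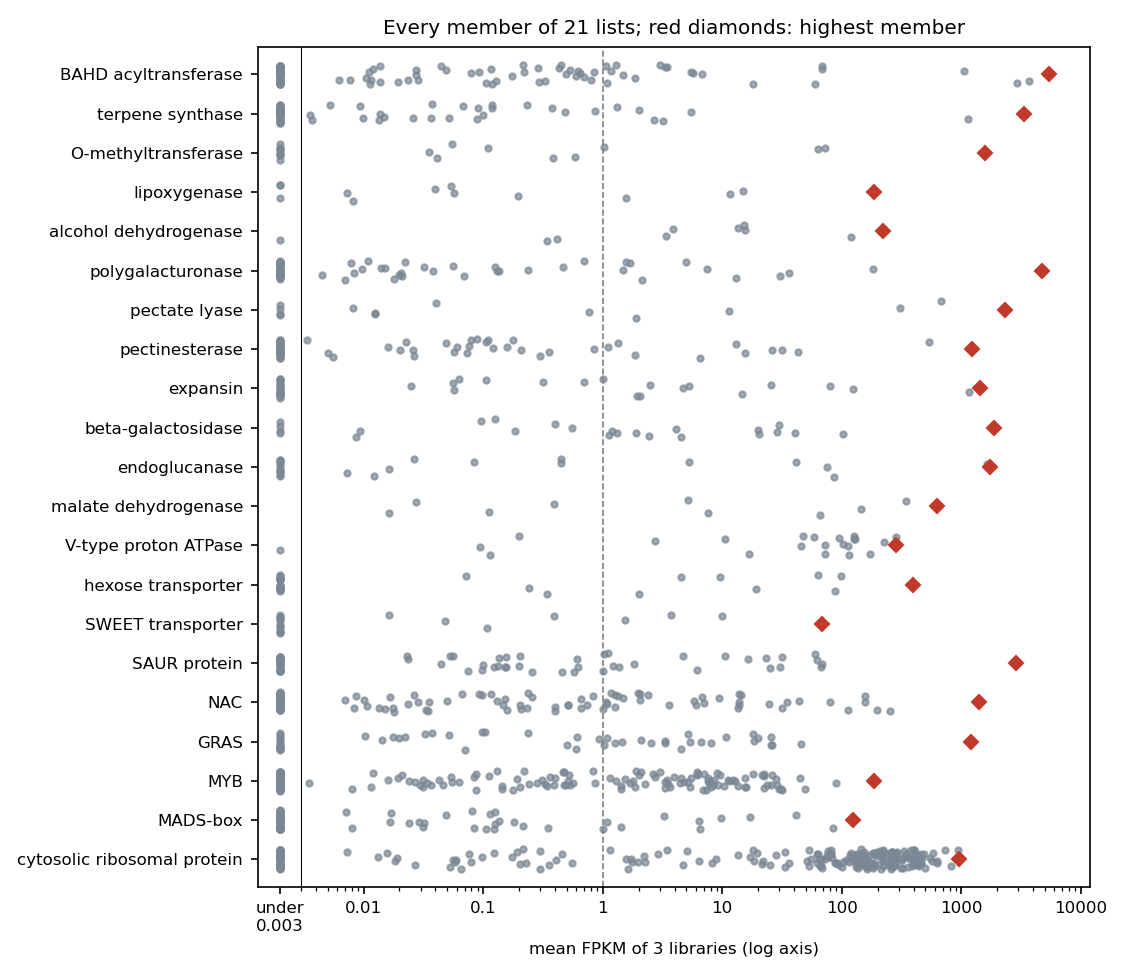
Mean FPKM of 3 libraries (log axis) for every gene of 21 lists, 1 grey point per gene and a red diamond for the highest; values under 0.003 FPKM, 0 included, stand left of the solid line, and the dashed line marks 1 FPKM. Among enzyme lists, the diamond stands furthest ahead for polygalacturonases, O-methyltransferases, beta-galactosidases and lipoxygenases (25.7-, 21.7-, 18.2- and 12.5-fold above the second gene). In others a second gene lies close to it, as in endoglucanases (1.06-fold), BAHD acyltransferases (1.46-fold), malate dehydrogenases (1.82-fold) and alcohol dehydrogenases (1.87-fold). Most cytosolic ribosomal protein genes crowd together between 10 and 1000 FPKM.

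Organic acid genes differed in form from those of aroma and wall: 50 of 83 were expressed (60.2%, above the 43.6% of all listed genes), 1 was among the 100 highest, and together they held 0.916%, 0.934% and 0.909% of the summed FPKM. Mitochondrial citrate synthase FvH4_7g00080, which makes citrate, had 212, 204 and 216 FPKM, and aconitate hydratase FvH4_6g43190, which consumes it, 209.8, 217 and 151 FPKM. Malate dehydrogenase FvH4_4g03630 had 566, 594 and 715 FPKM, the highest of the area, and held 52.3% ± 1.32 of 10 genes. All 5 malic enzymes, which turn malate into pyruvate, were expressed, led by FvH4_6g32330 at 142, 131 and 98.8 FPKM and FvH4_1g06000 at 111, 116 and 111 FPKM, which overlapped. Phosphoenolpyruvate carboxylase FvH4_6g27390, which feeds carbon into malate, had 36.2, 37.4 and 33.1 FPKM, above phosphoenolpyruvate carboxykinase FvH4_1g18850, of the reverse route, at 9.80, 10.3 and 10.6 FPKM.

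The vacuolar side of acid storage was carried by pumps and few carriers. Tonoplast dicarboxylate transporter FvH4_3g00891, a malate carrier of the vacuolar membrane, had 232, 241 and 246 FPKM. Its twin FvH4_3g00890, listed 131 bases away, had 0.352, 0.142 and 0.271 FPKM. Of 17 aluminum-activated malate transporters, a family of malate channels, 2 were expressed, led by FvH4_4g27693 at 39.0, 41.0 and 36.8 FPKM. The V-type proton ATPase, a pump of many subunits that acidifies the vacuole, had 19 of 23 genes expressed, and its highest gene held no more than 13.4% ± 1.18 of the sum. Its 16 kDa proteolipid genes FvH4_1g12060 and FvH4_2g27050 had 247, 264 and 342 FPKM for the first and 249.7, 265 and 337 FPKM for the second and overlapped. Vacuolar pyrophosphatase FvH4_6g07370, the second proton pump, had 111, 114 and 110.0 FPKM. D-galacturonate reductase FvH4_4g35841, of the ascorbate route known in strawberry, was at 32.5, 35.2 and 41.0 FPKM.

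Sugar metabolism held 1.03%, 1.05% and 1.09% of the summed FPKM, with 51 of 125 genes expressed (40.8%). The glyceraldehyde-3-phosphate dehydrogenase and aldolase lists, of glycolysis, held 0.471%, 0.479% and 0.548% (dehydrogenase) and 0.206%, 0.210% and 0.224% (aldolase) of the summed FPKM in replicates 1, 2 and 3, the largest parts of the area. GAPC2 FvH4_4g24420, given above, held 96.4% ± 0.299 of its list. Fructose-bisphosphate aldolases FvH4_4g26450 and FvH4_6g17980, annotated as chloroplastic and cytosolic, had 628, 646 and 724 FPKM for the first and 503, 524 and 643 FPKM for the second. Hexokinase-1 FvH4_1g06270 and fructokinase-4 FvH4_4g10860, which phosphorylate glucose and fructose, had 128, 131 and 132 FPKM for the first and 123, 130.0 and 169.9 FPKM for the second.

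Genes of sucrose turnover were low in comparison. Sucrose-phosphate synthase 1 FvH4_1g02490, which makes sucrose, had 115, 119 and 94.6 FPKM, and vacuolar acid invertase FvH4_7g27630, which splits it, 56.2, 62.4 and 53.3 FPKM. Cell wall invertase CWINV1 FvH4_6g33590 had 34.1, 35.5 and 32.7 FPKM, and sucrose synthase 2 FvH4_2g26000, which cleaves sucrose with UDP, 38.8, 41.1 and 33.4 FPKM. The synthase lay above each of these 3 cleaving enzymes in every library. Neutral invertases, which also split sucrose, had 5 of 7 genes expressed and a list sum of 92.3, 96.0 and 88.2 FPKM. List sums were 163, 169 and 143 FPKM for sucrose-phosphate synthases and 91.8, 99.9 and 87.7 FPKM for acid invertases. For sucrose synthases the list sum was 43.8, 46.3 and 38.7 FPKM. Sorbitol dehydrogenase FvH4_7g28870, of a sugar alcohol common in the rose family, had 113, 115 and 135 FPKM.

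Sugar carriers were led by the vacuole. Monosaccharide-sensing protein 2 FvH4_5g25950, a vacuolar sugar carrier in Arabidopsis, had 410.4, 415 and 367 FPKM and 58.1% ± 1.58 of the hexose transporter list. SWEET1 FvH4_2g14860, which lets sugars pass in either direction, had 62.7, 68.3 and 74.8 FPKM and 81.3% ± 0.233 of 19 SWEET genes, 11 of which were at 0. Sucrose carriers SUC4 FvH4_5g33660 and SUC3 FvH4_4g31620 had 36.7, 37.9 and 40.5 FPKM for the first and 19.3, 19.0 and 14.2 FPKM for the second, and the other 6 sucrose transport proteins were under 1 FPKM.

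Among hormone genes, the rate-limiting step of abscisic acid synthesis was high and those of ethylene and auxin synthesis were near 0. The abscisic acid enzyme, 9-cis-epoxycarotenoid dioxygenase NCED2 FvH4_3g05440 (chromosome 3, 3177811 to 3179640, minus strand) had 292, 307 and 296 FPKM, and held 99.1% ± 0.0638 of 6 genes, 4 of them at 0. Abscisic acid 8'-hydroxylases, which break the hormone down, had 2 of 7 genes expressed and a list sum of 4.31, 4.02 and 4.11 FPKM. The receptors PYL2 FvH4_2g32040, PYL3 FvH4_7g16220 and PYL8 FvH4_7g31130 had 54.7 ± 5.44, 40.6 ± 0.201 and 37.6 ± 1.54 FPKM (mean ± SD, n = 3 libraries).

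None of 7 ACC synthases, which make the ethylene precursor, was expressed: 5 were at 0 and the highest, FvH4_5g03160, had 0.167, 0.394 and 0.106 FPKM. ACC oxidase FvH4_3g01280, the last ethylene step, had 43.8, 44.3 and 47.9 FPKM, and 3 of 4 ethylene receptors were expressed, led by FvH4_4g03030 at 30.9, 31.9 and 25.6 FPKM. All 9 indole-3-pyruvate monooxygenases (YUCCA), of auxin synthesis, were under 1 FPKM, and the highest, FvH4_1g04800, had 0.104, 0.0927 and 0.0177 FPKM. Of 12 gibberellin 20- and 3-oxidases, 1 was expressed, FvH4_7g28670, at 4.34, 4.72 and 5.24 FPKM, while the gibberellin receptor GID1C FvH4_6g04960 had 140.4, 146 and 160.4 FPKM.

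Genes of the auxin response were present. SAUR76 FvH4_1g09300 (chromosome 1, 4980380 to 4980754, minus strand), of a family of small auxin-induced proteins, had 2666, 2648 and 3241 FPKM and 87.2% ± 0.0291 of 64 SAUR genes. Its level was 42.0-fold that of the second member, FvH4_2g10770. IAA11 FvH4_2g20500, a repressor of auxin response, had 307, 307 and 305 FPKM, the fourth most even gene of at least 100 FPKM.

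Transcription factors held 1.77% ± 0.0626 of the summed FPKM, with 297 of 809 expressed (36.7%). The highest was NAC transcription factor 56 FvH4_3g20700 (chromosome 3, 13762068 to 13763944, plus strand), of a plant-specific family with known ripening regulators, at 1461, 1442 and 1288 FPKM. It held 53.2% ± 2.08 of 123 NAC genes, and its neighbour of that family, FvH4_3g20690, 13687 bases away, had 154, 149 and 168 FPKM. Scarecrow-like protein 8 FvH4_7g30100 (chromosome 7, 22007126 to 22010096, plus strand), a GRAS protein, had 1141, 1168 and 1338 FPKM and 83.4% ± 1.62 of 51 genes, 26.3-fold above the DELLA protein GAIP-B FvH4_4g34110, a brake on gibberellin response.

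In the other families the highest gene was at most 2.10-fold above the second (MYB), against 5.55-fold in NAC. By share, SBP factors came near NAC, with FvH4_4g21420 at 51.1% ± 4.17 of 13 genes. MYB, the largest list with 186 genes, had 69 expressed (37.1%, against 43.6% of all listed genes), and MYB1 FvH4_5g32460 held 18.1% ± 0.774. The ethylene response factors RAP2-3 FvH4_4g18780 and ERF003 FvH4_2g40810 had 309, 317 and 397 FPKM for the first and 293, 301 and 319 FPKM for the second and overlapped. The bZIP 44 genes FvH4_2g09540 and FvH4_2g39350 had 317, 318 and 378 FPKM for the first and 286, 246 and 284 FPKM for the second, which did not. The homeodomain factor HAT22 FvH4_2g32410 had 186, 189 and 204 FPKM, and ATHB-6 FvH4_1g20230, of the abscisic acid response in Arabidopsis, 149, 148 and 127 FPKM. MADS-box factors, a family that includes the organ identity genes of the flower, had 11 of 77 genes expressed (14.3%, below that share). The highest were AP1-like FvH4_5g13500 at 129.9, 119 and 128 FPKM and AGAMOUS FvH4_3g06720 at 83.5, 82.0 and 88.4 FPKM.

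The lists grouped here as defence and storage took a large part of expression. They held 8.45%, 8.10% and 9.50% of the summed FPKM, very unevenly shared. The thaumatin, chitinase, glucan endo-1,3-beta-glucosidase and NB-ARC lists held only 0.0909%, 0.0478%, 0.0888% and 0.137% in the mean. Whether the high genes of the group act in stress or defence in this fruit was not tested. The list of the 14 kDa proline-rich protein alone held 4.16% ± 0.529 (SD, n = 3). That protein had 9 relatives by domain, of which FvH4_6g39260, a 36.4 kDa proline-rich protein, reached 10.4, 14.4 and 14.7 FPKM and the other 8 were under 1 FPKM. The Bet v 1 family had 22 of 39 genes expressed (56.4%, against 43.6% of all listed genes). MLP-like protein 329 held 83.2% ± 1.34 of it, ahead of the major strawberry allergen Fra a 1-3 FvH4_4g19050, at 304, 342 and 404 FPKM. Fra a genes lie in a run of 9 on chromosome 4, of which 8 were expressed.

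Further genes of these lists were lipid-transfer proteins, dehydrins and redox enzymes. Lipid-transfer proteins FvH4_6g09980 and FvH4_6g09970, neighbours on chromosome 6, had 1467, 1582 and 1971 FPKM for the first and 829, 890.4 and 1164 FPKM for the second. A dehydrin known by its domain, FvH4_2g37690, of a family that protects cells from drying, had 1148, 1091 and 1291 FPKM and 95.1% ± 1.03 of 6 genes. Cytosolic ascorbate peroxidase FvH4_3g33910, which removes hydrogen peroxide, had 699, 753 and 921 FPKM. Of the NB-ARC proteins, the immune receptors, 107 of 303 were expressed (35.3%, against 43.6% of all listed genes), and their median was 0.271 FPKM, against 0.381 FPKM over all listed genes.

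Membrane carriers were led by water channels. Aquaporin TIP1-1 FvH4_6g16770, a vacuolar water channel, had 1156, 1221 and 1686 FPKM, and FvH4_7g24120 and PIP1-3 FvH4_7g14430, of the plasma membrane type, had 377, 394 and 429 FPKM for the first and 338, 365 and 431 FPKM for the second. MATE proteins, the family of the gene mutated elsewhere in the series, had a sum of 539, 549 and 504 FPKM. Of their 56 genes 21 were expressed (37.5%, against 43.6% of all listed genes). DETOXIFICATION 55 FvH4_4g18550 was the highest of them at 171, 184 and 159 FPKM, followed by DETOXIFICATION 14 FvH4_4g26370 at 90.5, 89.9 and 85.1 FPKM. No description names FvMATE51, so its own level is not analysed here. Cytochrome P450 proteins had 78 of 332 genes expressed (23.5%, against 43.6% of all listed genes). The highest, CYP86B1 FvH4_4g36980, which oxidises fatty acids for suberin in Arabidopsis, was at 744, 774 and 769 FPKM.

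The ribosomal protein and histone lists were shared among many genes. The cytosolic ribosomal protein list had 179 of 246 genes expressed, with a sum of 34037, 35779.6 and 44608 FPKM, or 6.57% ± 0.591 of all FPKM. Its highest gene, 60S ribosomal protein L23 FvH4_2g20670, held no more than 2.50% ± 0.214 of that. The effective number of members, the inverse of the summed squared shares, was 107 for this list, against 1.12 for polygalacturonases and 3.38 for BAHD acyltransferases. Core histones had 28 of 34 genes expressed and an effective number of 16.2. Other lists of cell maintenance were led by 1 gene: actin FvH4_1g23490, of the cytoskeleton, held 84.3% ± 1.14 of 4 genes, and elongation factor 1-alpha FvH4_3g33150, of translation, 74.3% ± 0.381 of 5.

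**Figure D4:**
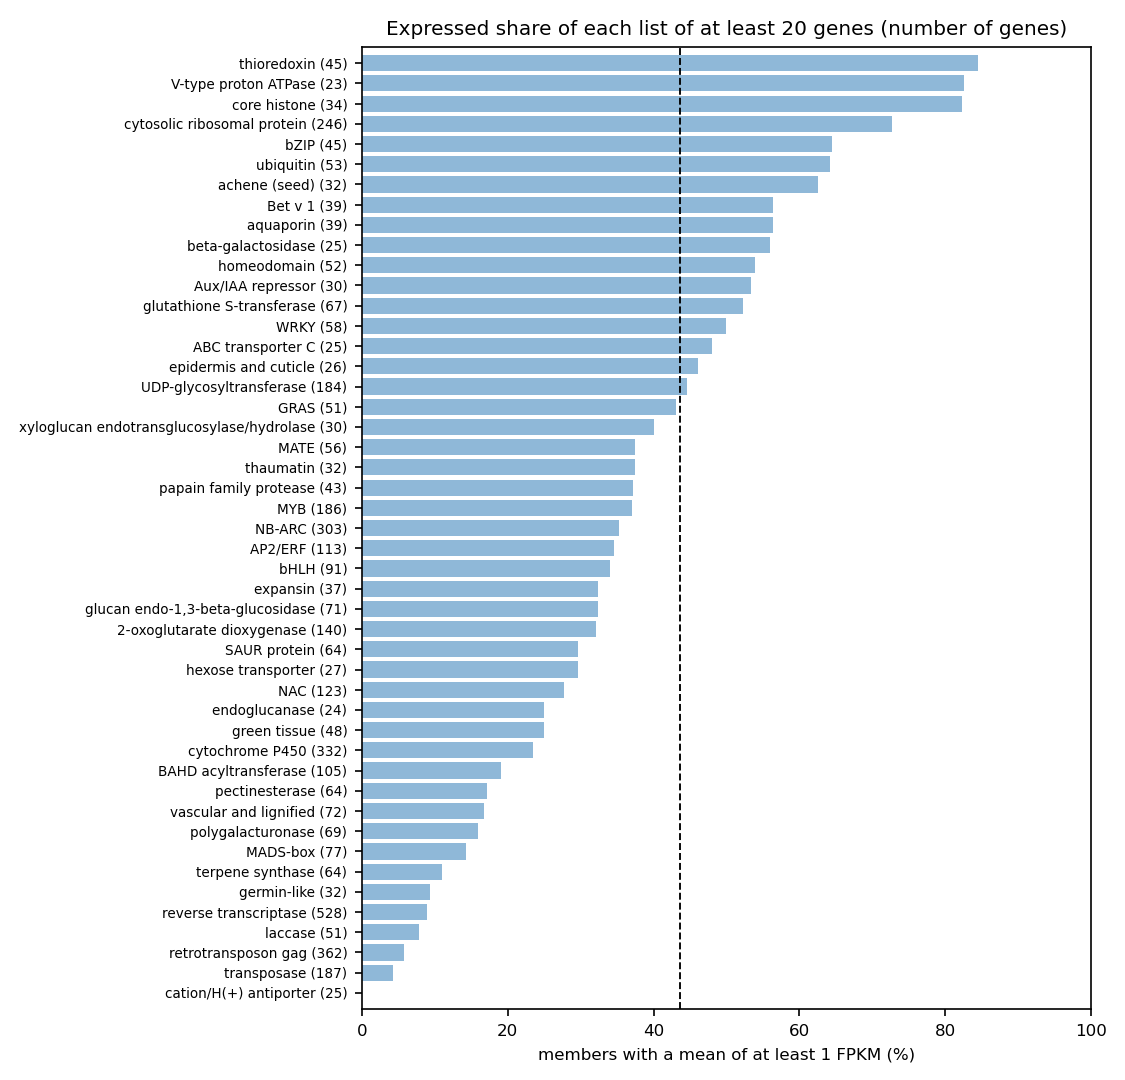
Share of genes with a mean of at least 1 FPKM in each list of at least 20 genes, with the number of genes in brackets; the dashed line is the 43.6% of all listed genes. Thioredoxins, V-type ATPase subunits and histones stand above 80%, and germin-like proteins, laccases, transposable element proteins and cation/H(+) antiporters below 10%.

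Families were also formed from the descriptions alone, by joining genes whose description differed in member numbers or letters. Of 972 such families with at least 5 genes, 921 had an expressed member. In 484 of these (52.6%) the highest gene held at least 50% of the family's summed FPKM, and in 109 (11.8%) at least 90%. The median share of the highest gene was 51.2%, and the median effective number of members 2.67 in families with a median size of 8. Where the highest gene was among the 100 highest of the fruit (45 families), the median share was 74.4%, against 50.2% in the other families. Level and share are not independent measures, since the highest gene is part of its family's sum.

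The 15 families with the highest sums included, beside those above, 60S ribosomal proteins (142 genes, 21699.6 FPKM), 40S ribosomal proteins (82 genes, 13033 FPKM), endoglucanases, pectate lyases and auxin-responsive proteins. Among families of at least 5 genes with an expressed member, the share of the first was 100% in 7, where every other gene was at 0. Among those 7 were Fe(2+) transport proteins, with FvH4_2g31850 at 35.3 FPKM in the mean, and GDP-mannose 4,6 dehydratases, with FvH4_1g12010 at 23.8 FPKM. The family of the 14 kDa proline-rich protein followed, then a CTD phosphatase family led by FvH4_5g28710 (65.2 FPKM) and carbonic anhydrases led by FvH4_4g34390 (157 FPKM).

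Related genes often lie side by side, and their levels differed widely. Genes of the same description within 50000 bases of each other formed 673 runs of at least 3 genes, with 2934 genes in all. Of these genes 893 (30.4%) were expressed, against 43.6% of all listed genes. In 250 runs none was expressed, and how many such runs the overall share alone would give was not computed. In the other 423 the highest gene held a median of 79.0% of the run's sum, exactly 1 gene was expressed in 179 and every gene in 42. Among the lists, the highest member had a neighbour of its own list within that distance in 22 cases. The neighbours, 25 in number, were at a median of 0.147% of the highest member, and 4 reached 10%: the pectinesterase, pectin acetylesterase, lipid-transfer protein and NAC neighbours. Each reference gene was chosen as the highest of its list or run, so the others could only lie below it. Members farther away were not compared, so these values do not show whether nearness matters. Reads shared by near-identical copies may be split or lost in the authors' counting, so levels of such copies are uncertain.

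Silent families ran through several functions. No member reached 1 FPKM in 51 of the 972 families with at least 5 genes, which held 360 genes, 195 of them at 0, and summed to 35.8 FPKM. The largest were cation/H(+) antiporters (25 genes, 15 at 0), which exchange ions for protons, Tf2-12 transposon polyproteins (14 genes), geraniol 8-hydroxylases (13 genes), of monoterpene oxidation, and S-protein homologs (13 genes, 12 at 0), of the self-incompatibility type. AP2-like ethylene-responsive factors (11 genes), AC9 transposases (10), subfamily 1 germin-like proteins (9), the 9 YUCCA enzymes, epidermal patterning factor-like proteins (8), phospholipases A1-IIgamma (8) and zinc-finger homeodomain proteins (8) came next. The highest of all these genes was a geraniol 8-hydroxylase, FvH4_4g24050, at 0.954 FPKM. Nerolidol synthases, scoulerine methyltransferases, ACC synthases and several others had 7 genes each.

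Genes of transposable elements were mostly silent too. Reverse transcriptase domains were on 528 genes, 47 expressed (8.90%) and 380 at 0. Gag proteins had 21 of 362 and transposases 8 of 187 expressed. A few were high, such as AC transposase-like FvH4_5g38140, at 91.2, 94.4 and 92.9 FPKM, and the gag-domain gene FvH4_5g32461, at 81.0, 83.6 and 89.6 FPKM. The highest gene of the reverse transcriptase list, FvH4_5g29280, is described as a subunit of mitochondrial complex I. Whether its domain belongs to the same transcript was not tested.

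The 3 libraries were close but not equal. Over the expressed genes the median SD of log2(FPKM + 1) was 0.14, and 33.6% of genes had an SD under 0.1. Replicates 1 and 2 differed by a median of 0.09 on the log2 scale, while replicate 3 differed by 0.20 from each of them. Mean chi-square values per gene of 6.76 (replicates 1 and 2), 71.7 (1 and 3) and 63.5 (2 and 3) were above the value of 1 that counting noise alone gives, so no pair agreed within counting noise. These values do not show whether the libraries came from separate plants.

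The difference of replicate 3 went with gene length. Its median log2 difference from the mean of replicates 1 and 2 was 0.11 for genes of 1 to 500 bases, 0.24 for 501 to 1000, 0.13 for 1001 to 2000, -0.03 for 2001 to 3000, -0.16 for 3001 to 4000, -0.34 for 4001 to 6000 and -0.57 for genes over 6000 bases. Replicates 1 and 2 differed from each other by no more than 0.02 in any length class. Genes of up to 2000 bases thus read higher in replicate 3, most so at 501 to 1000 bases, and genes over 2000 bases lower, increasingly so with length. Of 179 expressed ribosomal protein genes, which are short, 166 were highest in replicate 3, against 43.2% of all expressed genes. All 12 expressed ABC transporters of class C, which are long, were lowest in it, against 6188 of the 15167 expressed genes. The cause of this was not tested.

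**Figure D5:**
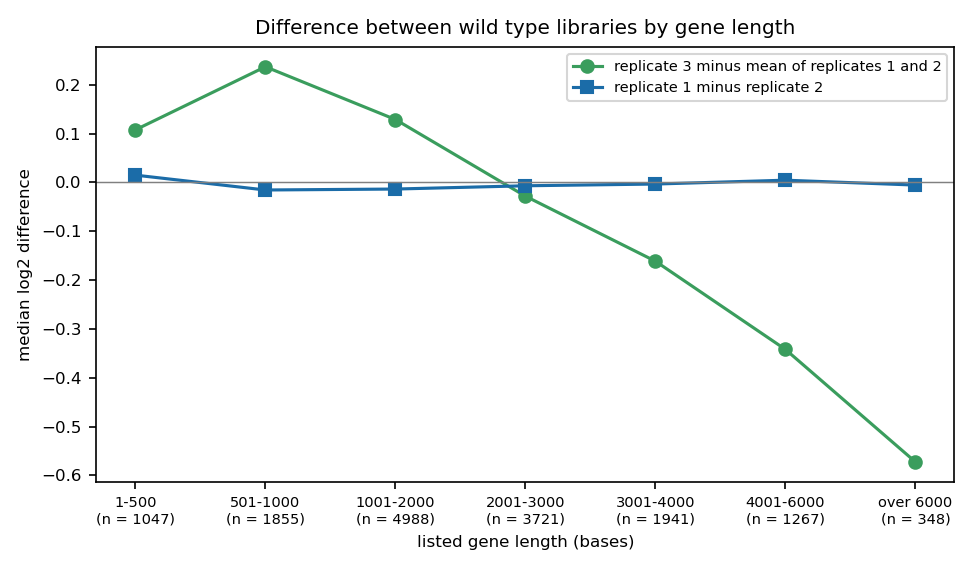
Median log2 difference between wild type libraries over expressed genes, in 7 classes of listed gene length with the number of genes in each. Replicate 3 against the mean of replicates 1 and 2 lies at 0.11 in the shortest class and runs from 0.24 at 501 to 1000 bases to -0.57 above 6000 bases, while replicate 1 against replicate 2 stays within 0.02 of 0.

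The 10 most uneven genes of at least 10 FPKM were all lowest in replicate 3, and 6 of them were longer than 4000 bases. Among these, the ubiquitin ligase UPL1 FvH4_3g42950 (12510 bases) had 31.4, 33.1 and 11.7 FPKM. Cellulose synthase subunit 2 FvH4_2g13380 had 16.7, 15.9 and 5.22 FPKM, and VPS13 FvH4_4g20980, a lipid-transport protein of membrane contacts, 17.1, 18.9 and 7.23 FPKM. A pair were short models of long enzymes, a stromal processing peptidase, FvH4_1g30300, at 16.1, 13.6 and 3.17 FPKM, and a 2-oxoglutarate dehydrogenase, FvH4_7g21781, at 62.7, 64.5 and 25.3 FPKM. Another pair were seed storage proteins, highest in replicate 1. FvH4_4g15890, with a vicilin domain, had 378, 217 and 143 FPKM, and the storage globulin prunin FvH4_3g19080 59.3, 29.2 and 27.4 FPKM.

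The achene list as a whole was highest in replicate 1. Of its 20 expressed genes 18 were highest in replicate 1, against 29.0% of all expressed genes, and the median log2 difference of replicate 1 from the mean of replicates 2 and 3 was 0.64. Prunin FvH4_2g21390 had 273, 159 and 126 FPKM and vicilin FvH4_2g23190 122, 80.3 and 70.3 FPKM. The second dehydrin, FvH4_1g12550, was also highest in replicate 1, at 54.1, 34.8 and 39.7 FPKM. The part of seed RNA in the other values of replicate 1 was not tested.

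The 5 most even genes of at least 100 FPKM were cystathionine gamma-synthase 1 and expansin A8, given above, a pyruvate dehydrogenase kinase FvH4_4g21480 at 141, 140.3 and 139.9 FPKM, IAA11 and nucleolin 2 FvH4_4g36861, of ribosome assembly, at 177, 179 and 178 FPKM. Their listed lengths ran from 1556 to 2802 bases.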

How the data were processed

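The members and gene lists were chosen with earlier results of these data known. The authors deposited 1 table with FPKM per gene and library, for 34777 genes with listed positions, lengths, Swiss-Prot descriptions and Pfam domains; 3 columns, matched to the wild type labels by name, were used. The submitters' processing notes name featureCounts 2.0.6, StringTie 2.2.3, HISAT2 2.2.1 and fastp, without saying what each did. The genome build and the strand setting are not given in the sources used here. Positions are printed as listed, and overlapping or antisense genes cannot be told apart. No sequence is printed.

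Multiplying FPKM by length gave, within each library, whole multiples of a single step (100% of values above 0 within 0.02 of a whole number), which gave fragments per gene; fragments outside listed genes were 3.71%, 2.35% and 1.78%. Listed lengths were multiples of 3 in 58.3% of genes, and FPKM depends on that length. Python 3.11.15 with pandas 2.3.3 computed means, SD between libraries (n = 3), sums and shares. No test was run. Expressed means a mean of at least 1 FPKM. Lists were word and domain patterns (125 lists; some genes are in more than 1, and domain patterns caught a few other genes, such as a CoA ligase among NB-ARC proteins).

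Named genes followed a rule: the 30 highest with a description or domain, up to 4 highest members of each list, the 15 description families with the highest sums, the 10 of at least 5 genes with the largest share of the first, the 15 largest silent families, the 10 most uneven and 5 most even genes, neighbours of a leading member and the 3 highest genes of marker lists. Unnamed genes and the short models in the closing section were chosen after their values were seen. Families in which no gene was expressed were left out of the second of these. The scripts were tested on simulated libraries. Alternatives were thresholds of 0.1, 0.5 and 5 FPKM, other scalings, fragments in place of FPKM, pseudocounts of 0.1 and 0.01 and each replicate left out.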

Additional observations from a re-analysis of the deposited data

How the results depend on the processing

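No paired analysis was possible because the report has 1 group and no result comes from a test. By fragments in place of FPKM, the 10, 100 and 1000 highest genes held 9.17%, 25.5% and 55.3%, the aroma, wall, pigment, sugar and acid lists 6.11%, 5.21%, 1.72%, 1.25% and 1.18%, the same order as by FPKM, and the median share of the first gene was 52.1%; long genes gain weight by construction. With the 30 highest genes left out, pigment held 1.84%, aroma 1.24%, wall 1.64%, acid 1.13% and sugar 0.709%, so that aroma no longer came first. The median share of the first gene was 53.0% over expressed members and 51.4% by the median of libraries, and 51.3 to 51.4% with a replicate left out. Silent families numbered 17 at 0.1 FPKM and 115 at 5 FPKM. The median SD of log2(FPKM + 1) was 0.0663 with no filter. It was 0.0612 to 0.141 with a replicate left out, lowest without replicate 3. Expressed genes numbered 20011 at 0.1 FPKM and 10119 at 5 FPKM; of the 30 highest genes 28 to 30 stayed so under the 2 other scalings, the median and each replicate left out, but 20 of 30 by fragments. Of 107 list shares of a first gene, 96 moved by more than their SD on the fragment scale, 20 with expressed members alone and 16 by the median; leaving out 1 of 3 replicates cannot move a mean by that much. Large moves included SBP factors (FvH4_4g21420, 51.1% by FPKM and 80.4% by fragments), sucrose-phosphate synthase (FvH4_1g02490, 69.1% and 92.4%) and terpene synthases (FvH4_6g19300, 73.9% and 54.1%). With 3 libraries no outlier test was made.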

Other observations

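A share of the fruit's expression came from genes without a name. Of the 34777 listed genes 9907 had neither a description nor a domain, and they held 9.99% of the summed FPKM. Expressed among them were 2865 (the share over all listed genes was 43.6%). Of these, 7 were among the 100 highest genes. FvH4_6g45551 (chromosome 6, 34950104 to 34950562, minus strand), 459 bases long, ranked 12 with 2790.0, 2990.3 and 3737 FPKM, and FvH4_3g14161 (chromosome 3, 8520838 to 8522841, plus strand), 342 bases, ranked 24 with 1877, 1856 and 1175 FPKM. The first was highest in replicate 3, as short genes were in general, and the second lowest there although it is short. FvH4_5g04430 had 749, 809.8 and 1028 FPKM.

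Transcripts outside the annotation numbered 771 and held 1.25% of the summed FPKM. Of them 510 were expressed (the share over all listed genes was 43.6%). How such models entered the list is not given, so that count is not a result about unannotated genes. The highest matched hydrophobic protein RCI2A, a small membrane protein induced by cold and salt in Arabidopsis (chromosome 6, 5093316 to 5094529, minus strand), and had 777, 803 and 973 FPKM. Its neighbour, matching LTI6A of the same family, had 243, 219 and 300.4 FPKM. Small ribosomal proteins were also among them, such as one matching eS30, at 255, 273 and 350.4 FPKM.

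Some neighbouring short models carry the same description. A pair of sucrose-phosphate synthase 2 models of 297 and 444 bases, FvH4_6g47971 and FvH4_6g47972, had 19.0, 18.6 and 17.4 FPKM for the first and 14.2, 14.3 and 18.7 FPKM for the second. Cytochrome P450 736A117 models FvH4_5g07550 and FvH4_5g07560, of 561 and 546 bases, had 325, 333 and 352 FPKM for the first and 226, 218 and 252 FPKM for the second, beside FvH4_5g07540 of 2123 bases at 227, 228 and 232 FPKM. Whether these are separate genes was not tested.

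Chromosome 6 held 25 of the 100 highest genes and 21.4% of the summed FPKM, with 19.0% of listed genes. Chromosome 5, with the 14 kDa proline-rich protein, held 16.4% of the FPKM and 13.8% of the genes. The expressed share of genes ran from 41.5% on chromosome 4 to 45.7% on chromosome 1.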
